A study of Homo sapiens with 22 samples.

Results

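The genes described here are 10 regulators of the secretory lineages of the gut: the transcription factor genes ATOH1, SPDEF, GFI1, CREB3L1, HES1, ISL1, NEUROD1 and INSM1, and the Notch ligand genes DLL1 and DLL4. They were taken by gene symbol from the gene tables, where all 10 were listed among 58870 genes in the siRNA experiment and among 57820 genes in the actinomycin D experiment. Of the 10, 8 had enough reads to be tested in both experiments, and NEUROD1 and INSM1 did not.

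In the intestinal epithelium, a progenitor cell that displays Delta ligands (DLL1, DLL4) activates Notch receptors on its neighbours. The cleaved receptor enters the nucleus, joins the DNA-binding protein RBPJ and switches on HES1, a repressor of ATOH1, and cells that escape this signal express ATOH1 and enter a secretory fate. Downstream of ATOH1, GFI1 and SPDEF act in goblet and Paneth cells, CREB3L1 is a membrane-bound factor released by proteolysis in secretory cells, and ISL1, NEUROD1 and INSM1 act in hormone-producing enteroendocrine cells.

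The study concerns the RNA-binding protein Staufen1 (STAU1) in 2 established human colorectal cancer cell lines, LS180 and HCT116. In the siRNA experiment, LS180 cells received an siRNA against STAU1 (siSTAU1) or a control siRNA (siCTRL) for 72 h and then again 72 h, and polyadenylated RNA was sequenced from 2 libraries per group. In the actinomycin D experiment, total RNA was sequenced from HCT116 and LS180 cells after 0, 2 and 4 h with 5 µg/ml actinomycin D, an inhibitor of transcription, in 3 libraries per line and time. No siRNA was named for these cells. The labels do not tie the libraries of a group to separate cultures, and the p-values therefore reflect library-to-library spread that may be technical.

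Libraries held 23.7 M to 26.7 M counts (M, 1e6) in the siRNA experiment and 47.8 M to 61.4 M in the actinomycin D experiment. STAU1 itself fell to 9.17 and 9.70 counts per 1e6 counts (CPM) in siSTAU1 libraries, against 141 and 144 CPM in siCTRL libraries. Of the 3 HCT116 libraries at each time, that numbered 1 correlated least with its group. Among the LS180 4 h libraries, numbers 2 and 3 had scaling factors (trimmed mean of M values, TMM) of 0.864 and 0.812, against 1.004 for number 1, which correlated least with its group. Member calls that changed without the HCT116 libraries numbered 1, or without the LS180 4 h libraries numbered 2 and 3, are given beside the result. Epithelial markers were strong in both lines: EPCAM averaged 301 CPM in HCT116 and 628 CPM in LS180 at 0 h. The intestinal genes CDH17, CDX1, LGALS4 and VIL1 had 9 reads or fewer each in the 3 HCT116 libraries at 0 h, where they averaged 115 to 287 CPM in LS180. These 4 come from a list of 10 colorectal epithelium markers, of which 6 averaged at least 1 CPM in HCT116 and 9 in LS180 at 0 h. A list gene other than these 4 was under 1 CPM in LS180 but not in HCT116. The endothelial markers CDH5 and TIE1 and the T cell marker CD3E, relevant because endothelium expresses DLL4 and blood cells express GFI1, averaged 0.0239 CPM or less in all 8 groups. The lists they belong to were not at 0 as a whole. The 7 endothelial markers summed to 22.3 to 31.6 CPM in the 9 HCT116 libraries, nearly all of it EGFL7, against 1.36 to 2.04 CPM in the 9 LS180 libraries of the same experiment. The 6 neuronal markers summed to 18.2 to 21.96 CPM in HCT116, nearly all SYT1, against 4.99 to 7.09 CPM in LS180 of that experiment. The 8 blood markers summed to 0.359 CPM or less in the actinomycin D libraries of both lines. In the LS180 siRNA libraries they summed to 2.88 to 4.62 CPM. The part of these transcripts in the line comparisons was not tested.

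At baseline the members spanned a wide range, and their order differed between the experiments. Levels of different genes are compared here as TPM, transcripts per 1e6 transcripts, which corrects for length. In LS180 siCTRL cells CREB3L1 was highest at 45.5 TPM, followed by HES1 at 29.1, SPDEF at 19.6, ATOH1 at 14.5, DLL4 at 7.49, DLL1 at 3.02, ISL1 at 3.01, GFI1 at 1.39 and INSM1 at 0.10 TPM. DLL1 and ISL1 overlapped between libraries, and the other neighbours in that order did not. In untreated HCT116 cells HES1 led at 2.93 TPM, ahead of GFI1 at 0.33, DLL1 at 0.21, ISL1 at 0.19 and DLL4 at 0.18 TPM, with ATOH1, SPDEF and CREB3L1 at 0.0133 TPM or less. In untreated LS180 cells HES1 led at 8.66 TPM, ahead of DLL4 at 3.22, DLL1 at 1.16, ISL1 at 0.94, SPDEF at 0.93, CREB3L1 and ATOH1 at 0.80 each and GFI1 at 0.0567 TPM. The libraries of DLL1, ISL1 and DLL4 overlapped in HCT116; in LS180 ISL1 and ATOH1 each overlapped with DLL1, SPDEF, CREB3L1 and one another, so the order from DLL1 to ATOH1 is only partly resolved.

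**Figure D1:**
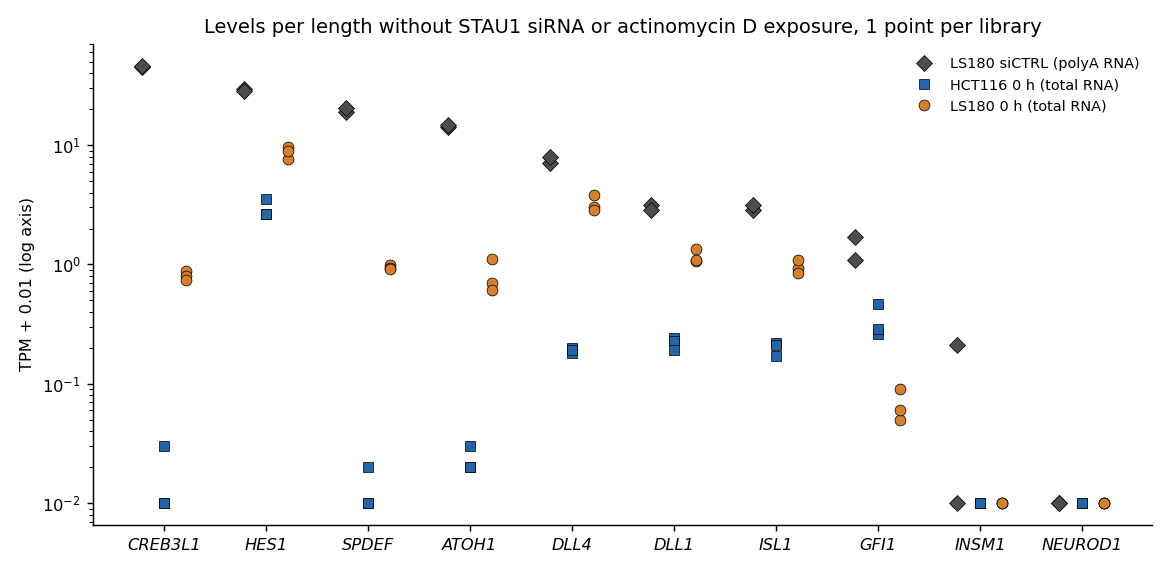
Levels per length (TPM + 0.01, log axis) of the 10 genes in libraries with neither STAU1 siRNA nor actinomycin D exposure: 2 LS180 siCTRL libraries from polyadenylated RNA (diamonds), 3 HCT116 0 h libraries (squares) and 3 LS180 0 h libraries (circles) from total RNA. Points at 0.01 stand for 0 TPM; ATOH1, SPDEF and CREB3L1 lay at or near that floor in HCT116.

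The promoters of HES1, ATOH1 and SPDEF are shown because HES1 answers to RBPJ, ATOH1 is repressed by HES1, and SPDEF had the largest change of the members with siSTAU1. Each is the 250 bases before the RefSeq gene start in GRCh38.p14, read 5′ to 3′ on the gene's strand. They lie at chr3:194135898-194136147 (plus strand, HES1), chr4:93828503-93828752 (plus strand, ATOH1) and chr6:34556330-34556579 (minus strand, SPDEF). Capitals mark the letters TGGGAA (the RBPJ core), CACNAG (the N box bound by HES proteins) and CANNTG (the E box bound by ATOH1 and other basic helix-loop-helix factors), searched on both strands; no matches overlapped in these windows.
HES1: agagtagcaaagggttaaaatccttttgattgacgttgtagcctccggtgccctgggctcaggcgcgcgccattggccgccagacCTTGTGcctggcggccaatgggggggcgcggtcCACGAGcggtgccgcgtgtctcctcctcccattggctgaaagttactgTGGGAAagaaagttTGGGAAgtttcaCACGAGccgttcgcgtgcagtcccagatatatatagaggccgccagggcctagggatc
ATOH1: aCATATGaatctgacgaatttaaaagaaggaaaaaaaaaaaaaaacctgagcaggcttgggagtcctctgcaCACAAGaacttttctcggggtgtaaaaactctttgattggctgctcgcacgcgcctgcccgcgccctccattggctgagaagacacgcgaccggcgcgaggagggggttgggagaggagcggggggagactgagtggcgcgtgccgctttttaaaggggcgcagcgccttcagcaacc
SPDEF: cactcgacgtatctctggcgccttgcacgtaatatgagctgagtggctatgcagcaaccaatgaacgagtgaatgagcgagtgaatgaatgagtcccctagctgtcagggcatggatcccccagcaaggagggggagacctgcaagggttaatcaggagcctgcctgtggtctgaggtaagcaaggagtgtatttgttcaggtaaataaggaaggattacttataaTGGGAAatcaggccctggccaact

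The HES1 promoter held the RBPJ core at 2 places, starting 84 and 70 bases before the gene start, and the N box at 3. ATOH1 held 1 N box, 178 bases before its start, and 1 E box. SPDEF held a single RBPJ core, 24 bases before its start. Over 27305 RefSeq promoters of the same length, 21.1% held the RBPJ core, 32.0% the N box and 62.2% the E box. Of the members, 8 were in the promoter table, and apart from these 3 genes only GFI1 and ISL1 held any of these motifs, with 1 E box each. Neither forkhead core searched, TGTTTAC or TGTTTGC, was found in the 8 windows; these letters occurred in 2.98% and 3.19% of promoters.

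Silencing of STAU1 raised 4 of the 8 tested members in LS180 cells and lowered 0 at an edgeR quasi-likelihood adjusted p under 0.05. SPDEF rose by 0.87 on the log2 scale, ATOH1 by 0.46, CREB3L1 by 0.41 and DLL1 by 0.35. At an unadjusted p under 0.05, edgeR also found 4 higher and 0 lower, and DESeq2 called 3 higher and 0 lower. Over all 14073 genes tested, 23% were called higher and 23% lower (46.1% in either direction), so 4 of 8 called is near the background share. The median change of the 8 was 0.24, beside 0.00 over all genes tested.

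SPDEF, an ETS-family factor needed for goblet cell maturation (chr6:34537802-34556333, minus strand, GRCh38), had 46.7 and 46.8 CPM in siSTAU1 libraries, against 24.8 and 26.3 CPM in siCTRL libraries. Both siSTAU1 libraries lay well above both siCTRL libraries, a log2 fold change of 0.87 with a standard error (SE) of 0.0639 (edgeR adjusted p = 1.20e-06). Its increase exceeded that of 97.2% of genes tested. ATOH1 (chr4:93828753-93830964, plus strand), the factor that commits cells to the secretory fate, had 31.4 and 29.8 CPM with siSTAU1, against 21.9 and 22.6 CPM with siCTRL. The groups did not overlap, and the log2 fold change was 0.46 (SE 0.0665, edgeR adjusted p = 1.68e-04).

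CREB3L1 (chr11:46277661-46321422, plus strand) had the highest CPM of the members, 113 and 111 in siSTAU1 libraries, against 83.7 and 84.3 in siCTRL libraries. Its log2 fold change of 0.41 had the smallest SE, 0.0377 (edgeR adjusted p = 6.25e-06). DLL1 (chr6:170282206-170306565, minus strand), the Delta ligand of secretory progenitors, had 10.9 and 10.1 CPM with siSTAU1, against 8.68 and 7.73 CPM with siCTRL. Here too the libraries did not overlap, at a log2 fold change of 0.35 (SE 0.107, edgeR adjusted p = 0.0174). This call was lost with DESeq2 (adjusted p = 0.120), with an offset for effective length (0.0823), without siCTRL replicate 2 (0.144) and without siSTAU1 replicate 1 (0.0822). DLL1 also overlaps the gene FAM120B on the other strand, and whether counting used strand was not given in the sources used here.

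The other 4 tested members did not pass the test. HES1 (chr3:194136145-194138732, plus strand) had 31.1 and 34.1 CPM in siSTAU1 libraries and 31.5 and 29.5 CPM in siCTRL libraries, which overlapped (log2 0.10, 95% interval -0.06 to 0.25). DLL4 (chr15:40929333-40939073, plus strand), the second Delta ligand, had 15.7 and 16.9 CPM with siSTAU1, against 17.5 and 19.1 CPM with siCTRL. DLL4 thus lay lower in both siSTAU1 libraries, but the log2 fold change of -0.16 (interval -0.34 to 0.01) missed the threshold at an edgeR adjusted p of 0.119. ISL1 (chr5:51383391-51394738, plus strand) had 5.25 and 5.67 CPM with siSTAU1, against 4.84 and 5.22 CPM with siCTRL (log2 0.12, interval -0.18 to 0.42). GFI1 (chr1:92474762-92486876, minus strand), a zinc-finger repressor, had 3.09 and 3.66 CPM with siSTAU1 and 3.47 and 2.97 CPM with siCTRL (log2 0.06, interval -0.34 to 0.47). The intervals for GFI1 and ISL1 reach just above the change called in CREB3L1, so an increase of that size lies within them.

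The 2 enteroendocrine factors outside the test were near 0. INSM1 (chr20:20368121-20370949, plus strand) had 6 and 7 reads in siSTAU1 libraries, against 11 and 0 reads in siCTRL libraries. NEUROD1 (chr2:181673088-181680876, minus strand) had 0 reads in all 4, which with a floor of 3 counts allows up to 0.0602 CPM with siSTAU1 and 0.0588 CPM with siCTRL; such limits cover counting error only.

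**Figure D2:**
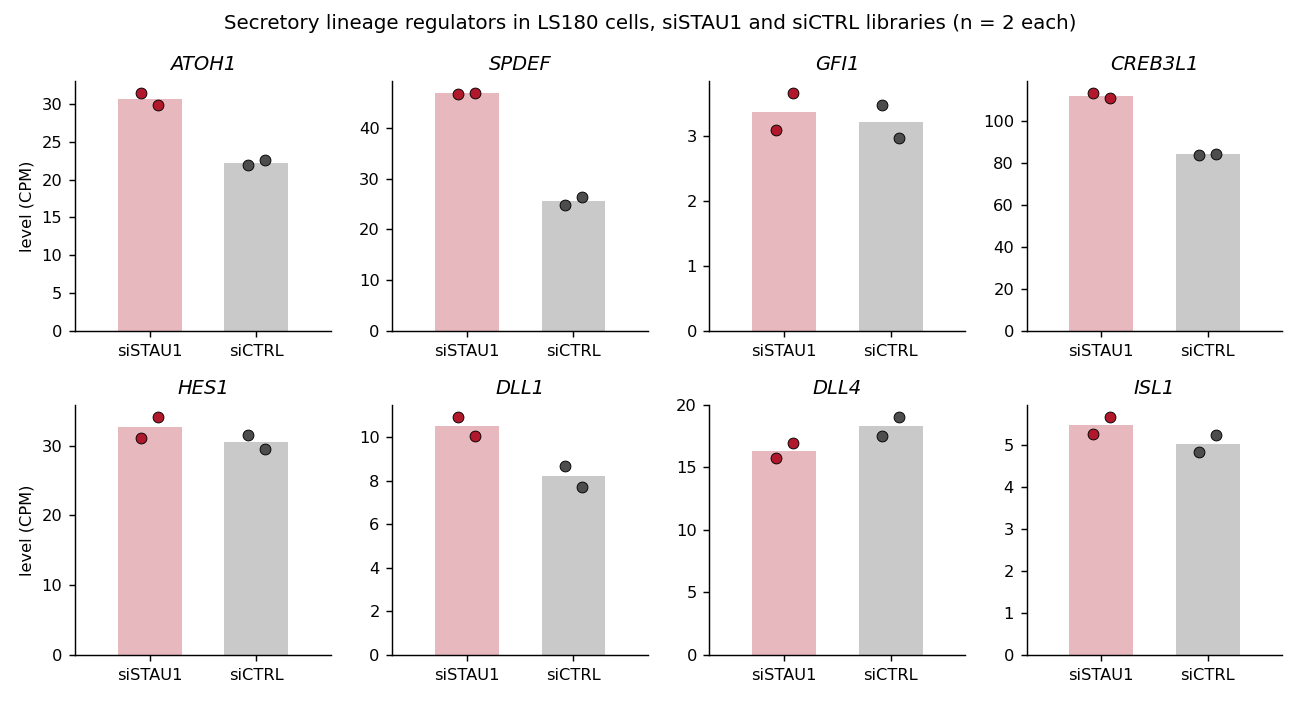
CPM of the 8 tested genes in LS180 siSTAU1 libraries (red, left) and siCTRL libraries (grey, right); points are the 2 libraries per group and bars their mean, each panel with its own axis from 0. SPDEF, ATOH1, CREB3L1 and DLL1 were higher with siSTAU1, and HES1 and GFI1 overlapped between groups.

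Genes around the members moved in both directions with siSTAU1. Of 33 tested genes for Notch receptors, ligands and signal machinery, 10 rose and 14 fell, with a median log2 change of -0.02. The ligand JAG1 fell by 0.76, whereas LFNG, a glycosyltransferase that modifies Notch, rose by 0.59 and NEURL1, a ubiquitin ligase, by 0.65. Of 12 tested Notch targets and HES co-repressors besides HES1, 5 rose and 3 fell. NRARP, a Notch-induced feedback inhibitor, fell by 0.97 and HES6 by 0.45, and HES2 rose by 1.18 and HES4 by 0.91.

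Of 11 tested further secretory and enteroendocrine regulators, 2 rose (KLF4 by 0.59 and XBP1 by 0.30) and 2 fell (SOX9 by 0.30 and ZNF800 by 0.26). KLF4 acts in goblet cell differentiation, XBP1 in the endoplasmic reticulum of secretory cells and SOX9 in Paneth and progenitor cells. Goblet cell products, which include many SPDEF-dependent genes in mouse, had 16 of 23 tested members higher and 3 lower, with a median of 0.33; REG4 rose by 1.34, TFF1 by 0.93 and AGR2 by 0.74, and CLCA1 fell by 2.92, a gene named after its values were seen. Of 14 tested genes of the CREB3 and ATF6 family, their site proteases and coat targets, 7 rose and 3 fell; MBTPS1, the site-1 protease that releases factors of the CREB3L1 kind, rose by 0.31, SEC24D rose by 0.36, and SEC23A fell by 1.13. Of 3 tested enteroendocrine products, 0 changed (0 also at an unadjusted p under 0.05 in edgeR and 0 with DESeq2).

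Some markers of other cells moved with the same contrast. Summed Paneth markers were at 256 to 262 CPM in siSTAU1 libraries, against 456 to 467 CPM in siCTRL libraries, with 3 of 4 genes at or above 1 CPM. Summed fibroblast markers were at 15.3 to 16.8 CPM with siSTAU1, against 4.72 to 5.13 CPM with siCTRL, with 2 of 6 at or above 1 CPM and COL1A2 at 0 in both groups. Summed endothelial markers were at 2.00 to 2.53 CPM with siSTAU1, mostly EGFL7, against 0.334 to 0.554 CPM with siCTRL, with 4 of 7 at 0 in each group. Summed blood markers were at 3.81 to 4.62 CPM with siSTAU1, mostly CD14, against 2.88 to 3.25 CPM with siCTRL. Their part in the members' changes was not tested.

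Actinomycin D shows how much of each transcript is left once transcription is blocked. In LS180 cells 6 of the 8 tested members fell within 2 h and 7 within 4 h, and CREB3L1 did not pass the test at either time. All values are relative to the RNA that remains, since total RNA per cell was not measured, and in bulk samples less RNA per cell and fewer cells of a type cannot be told apart. Over 17256 genes tested, 37.4% were called at 2 h (13.5% higher and 23.9% lower) and 57.7% at 4 h (26.6% higher and 31.1% lower). Their median log2 change was -2.38 at 2 h and -3.23 at 4 h, beside -0.02 and 0.00 over all genes. The number higher was 0 at both times with edgeR; at an unadjusted p under 0.05 it was 1 at 2 h and 0 at 4 h, and with DESeq2 1 at each time.

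HES1 and DLL4 fell furthest within the first 2 h. HES1 had 30.1, 27.5 and 30.3 CPM at 0 h, 2.87, 2.503 and 1.96 CPM at 2 h and 1.91, 2.10 and 2.00 CPM at 4 h. All treated libraries lay far below all untreated ones, with 8.33% left at 2 h and 6.83% at 4 h (log2 -3.59, SE 0.121, and -3.87, SE 0.126; edgeR adjusted p = 6.03e-14 and 1.22e-14). Most of the loss was thus complete at 2 h. DLL4 had 25.5, 23.4 and 21.3 CPM at 0 h, 1.84, 1.89 and 1.79 CPM at 2 h and 1.24, 0.827 and 0.914 CPM at 4 h. It had 7.85% left at 2 h and 4.24% at 4 h (log2 -3.67, SE 0.163, and -4.55, SE 0.179; edgeR adjusted p = 1.81e-12 and 1.26e-13), and 0.516% and 0.44% of genes fell further.

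ATOH1 had 2.54, 1.83 and 1.51 CPM at 0 h, 0.255, 0.187 and 0.179 CPM at 2 h and 0.0953, 0.161 and 0.0218 CPM at 4 h. The 4 h values rest on 5, 8 and 1 reads, so the 4.74% left then is less certain than the 10.6% left at 2 h (log2 -4.34, SE 0.395, and -3.23, SE 0.340). ISL1 had 5.38, 5.61 and 5.51 CPM at 0 h, 0.833, 0.747 and 0.994 CPM at 2 h and 0.496, 0.565 and 0.457 CPM at 4 h. Its libraries agree closely within each time, and 15.6% and 9.20% were left. DLL1 had 9.24, 8.45 and 8.13 CPM at 0 h, 1.85, 2.00 and 2.18 CPM at 2 h and 1.47, 0.887 and 0.784 CPM at 4 h. It fell more slowly than DLL4, with 23.4% left at 2 h and 12.2% at 4 h; the difference between the 2 genes was not tested. GFI1 had 0.465, 0.272 and 0.323 CPM at 0 h, 0.119, 0.131 and 0.163 CPM at 2 h and 0.114, 0.0202 and 0.152 CPM at 4 h. These are 1 to 26 reads per library, and 39.0% and 27.1% were left (edgeR adjusted p = 0.00633 and 5.20e-04).

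SPDEF and CREB3L1, the goblet cell and membrane-bound factors, stood apart. SPDEF had 3.86, 4.17 and 3.88 CPM at 0 h, 4.74, 5.21 and 5.36 CPM at 2 h and 3.30, 2.56 and 2.63 CPM at 4 h. All 2 h libraries were above and all 4 h libraries below the untreated ones, with a log2 fold change of 0.36 at 2 h (SE 0.154, edgeR adjusted p = 0.0771) and -0.49 at 4 h (SE 0.161, adjusted p = 0.0160), when 71.3% was left. The 2 h value passed the threshold in 15 of 30 alternative settings, among them without the HCT116 libraries numbered 1 (adjusted p = 0.0160) and without the LS180 4 h libraries numbered 2 and 3 (0.0124). The 4 h call was lost in 12 of 30. Over all settings the 4 h change was negative, from -1.02 to -0.13. The value of -0.13 came without the LS180 4 h libraries numbered 2 and 3, which leaves 1 library at 4 h. CREB3L1 had 4.36, 5.01 and 4.09 CPM at 0 h, 4.50, 5.85 and 5.44 CPM at 2 h and 6.21, 4.76 and 4.85 CPM at 4 h. Treated and untreated libraries overlapped at both times, and the log2 changes of 0.23 and 0.24 did not pass the test (adjusted p = 0.263 and 0.206). The 4 h change passed as an increase in 9 of 30 alternatives, at 0.37 with median-ratio (RLE) size factors (adjusted p = 0.0465), 0.37 with DESeq2 (0.0480) and 0.60 without the LS180 4 h libraries numbered 2 and 3 (0.0198). The 2 h change passed in 1 of 30, without LS180 4 h replicate 1 (0.36, adjusted p = 0.0436).

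These signs depend on what the libraries are scaled to. With ribosomal protein genes as the scale the all-gene median was -0.25 at 2 h and -0.54 at 4 h in LS180, and CREB3L1 was at -0.00127 and -0.29, neither passing the test. All-gene calls split into 2329 higher and 4121 lower at 2 h, against 4863 and 3364 with RLE factors and 55 and 5596 with the ribosomal scale. At 4 h the split was 4591 higher and 5365 lower, against 6044 and 4613 with RLE factors and 127 and 10700 with the ribosomal scale. The falls of HES1, DLL4, ATOH1, ISL1, DLL1 and GFI1 in LS180 kept direction and call in all 30 alternatives at both times.

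**Figure D3:**
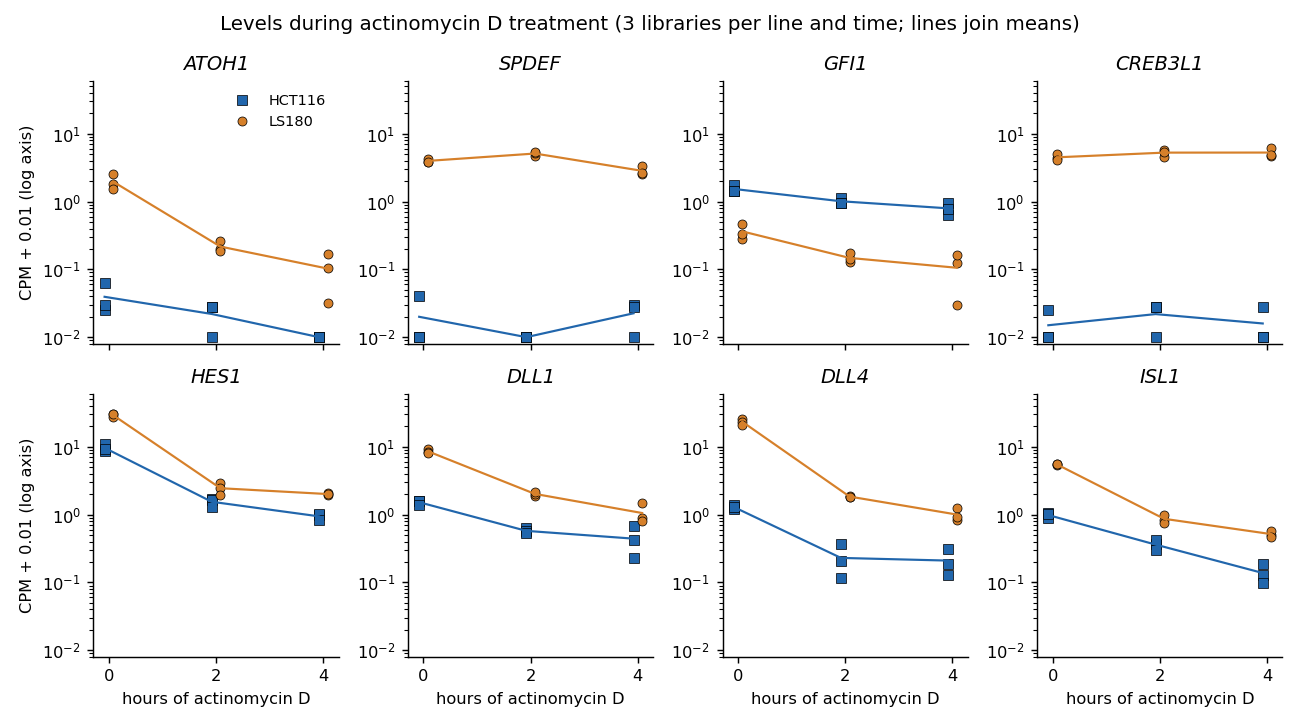
CPM + 0.01 (log axis) of the 8 tested genes at 0, 2 and 4 h of actinomycin D in HCT116 (blue squares) and LS180 (orange circles); points are the 3 libraries per line and time and lines join the means. In LS180, HES1, DLL4, ATOH1, ISL1, DLL1 and GFI1 drop by 2 h. SPDEF lies above its untreated level at 2 h and below it at 4 h, and CREB3L1 stays near its untreated level.

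In HCT116 cells 4 of the 8 tested members fell at 2 h and 6 at 4 h, and 0 rose at either time (0 also at an unadjusted p under 0.05 in edgeR, and 0 with DESeq2). Of all genes tested, 31% were called at 2 h (13.8% higher and 17.1% lower) and 49.9% at 4 h (26.2% higher and 23.7% lower). With the ribosomal scale the split of all genes was 33 higher and 3958 lower at 2 h, beside 2389 and 2957, and 114 higher and 7300 lower at 4 h, beside 4524 and 4085. HES1 had 10.8, 8.68 and 9.43 CPM at 0 h, 1.67, 1.65 and 1.29 CPM at 2 h and 0.974, 1.01 and 0.817 CPM at 4 h. Its groups were far apart, with 15.9% left at 2 h and 9.68% at 4 h (log2 -2.65 and -3.37, edgeR adjusted p = 1.98e-11 and 6.57e-13).

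ISL1 had 0.868, 1.05 and 1.01 CPM at 0 h, 0.354, 0.413 and 0.288 CPM at 2 h and 0.176, 0.119 and 0.0888 CPM at 4 h, with 36.1% and 13.1% left. DLL4 had 1.18, 1.37 and 1.302 CPM at 0 h, 0.354, 0.198 and 0.108 CPM at 2 h and 0.303, 0.119 and 0.178 CPM at 4 h. Its 2 h and 4 h libraries overlapped, at 17.1% and 15.6% of the untreated level. DLL1 had 1.56, 1.60 and 1.38 CPM at 0 h, 0.620, 0.557 and 0.521 CPM at 2 h and 0.671, 0.218 and 0.409 CPM at 4 h, which left 37.4% and 28.6%. For DLL1 and DLL4 alike, the 4 h library numbered 1 was the highest of its group.

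GFI1 had 1.75, 1.41 and 1.42 CPM at 0 h, 1.12, 0.952 and 0.934 CPM at 2 h and 0.958, 0.633 and 0.764 CPM at 4 h in HCT116. It lay lower in every treated library, and passed the test at 4 h (log2 -0.95, SE 0.234, edgeR adjusted p = 0.00223) but not at 2 h (log2 -0.61, SE 0.229, adjusted p = 0.05003, just above the threshold). In 14 of 30 alternatives the 2 h change passed, among them without the LS180 4 h libraries numbered 2 and 3 (adjusted p = 0.0166). Same-numbered HCT116 libraries deviated together, and with the number as a block within HCT116 it also passed (adjusted p = 0.0293). ATOH1 had 1, 3 and 1 reads at 0 h, 0, 1 and 1 at 2 h and 0 in all libraries at 4 h, at least 1.63-fold lower at 4 h when 3 counts over the group are taken as the floor. That call (edgeR adjusted p = 0.0450) was lost in 15 of 29 alternatives, among them the block within HCT116 (adjusted p = 0.0514) and the fit without the HCT116 libraries numbered 1 (0.0848). SPDEF and CREB3L1 had at most 2 reads in all at any time, under the floor, so no fold is given.

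The 2 lines already differed strongly before treatment. All 8 tested members were called between untreated HCT116 and LS180, 7 lower and 1 higher in HCT116, where 76.3% of all genes were called (42.6% lower and 33.7% higher). With the ribosomal scale that all-gene split was 7342 higher and 5343 lower, beside 5819 and 7343; the 8 calls held in all 30 alternatives. CREB3L1 had 1 read in all in HCT116, against 730 reads in LS180, a ratio of 0.00129 (95% exact interval 3.26e-05 to 0.0072). SPDEF had 2 reads in HCT116, against 647 in LS180, a ratio of 0.00291 (interval 3.51e-04 to 0.0105), and ATOH1 had 5 reads against 320 (log2 -5.98, SE 0.464). With so few reads in HCT116, CREB3L1, SPDEF and ATOH1 entered the test only through LS180. They are part of the 7 lower calls, which the filter on reads thus partly fixed in advance.

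The Notch genes and ISL1 differed less. DLL4 averaged 1.29 ± 0.0961 CPM in HCT116 and 23.4 ± 2.11 CPM in LS180 (SD, n = 3 each; log2 -4.19, SE 0.171). DLL1 averaged 1.51 ± 0.118 CPM in HCT116 and 8.60 ± 0.570 CPM in LS180 (log2 -2.50). ISL1 averaged 0.975 ± 0.0955 CPM in HCT116 and 5.50 ± 0.117 CPM in LS180, also -2.50. HES1 averaged 9.64 ± 1.09 CPM in HCT116 and 29.3 ± 1.57 CPM in LS180 (log2 -1.60), so the repressor was the least reduced member. GFI1 was the exception, at 1.53 ± 0.195 CPM in HCT116 and 0.353 ± 0.0998 CPM in LS180 (log2 2.10, SE 0.261, edgeR adjusted p = 6.67e-07). NEUROD1 had 0 reads in both lines at 0 h, and INSM1 0 in HCT116 and 1 in LS180.

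Goblet cell products had 21 of 23 tested genes lower in HCT116 and 1 higher, beside 42.6% lower and 33.7% higher over all genes. Their median log2 change was -9.49. A gene near 0 in 1 line could enter the test only through the other, so such calls were partly fixed by the filter. Of 34 tested Notch machinery genes 14 were higher and 14 lower, and the ligand JAG2 was higher by 3.54 whereas LFNG was lower, at -2.73. Of 15 tested Notch targets and co-repressors 5 were higher and 9 lower, among them NRARP at -2.93 and HES6 at -2.24. Enteroendocrine products, by contrast with ISL1, had 5 of 7 tested genes higher in HCT116, with CPE at 6.72 and NPW at 6.88 on the log2 scale. With the ribosomal scale the counts were 16 higher and 11 lower for the Notch machinery, 5 and 7 for the targets, 1 and 21 for the goblet products and 5 and 1 for the enteroendocrine products.

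The fall differed between the lines for HES1 and ISL1 at 2 h and for DLL1 and DLL4 at 4 h. No member was called at both times. A test of the difference itself (change in HCT116 minus change in LS180, so that a positive value is a smaller fall in HCT116) called 2 members at 2 h and 2 at 4 h, all 4 positive, and 0 negative at either time (0 also at an unadjusted p under 0.05 and with DESeq2). Of all genes, 5.64% were called at 2 h (5.24% positive and 0.394% negative) and 13.7% at 4 h (12.3% positive and 1.33% negative). That one-sided split depended on the settings. At 2 h it was 905 positive and 68 negative, against 576 and 116 with RLE factors, 522 and 254 with a filter of 1 CPM, 620 and 305 when LS180 4 h libraries 2 and 3 were omitted, and 1145 and 106 with the block within HCT116. At 4 h it was 2129 positive and 230 negative, against 1521 and 451, 1253 and 1757, and 524 and 466 under the first 3 of these settings. At 2 h HES1 differed by 0.94 (SE 0.179, edgeR adjusted p = 0.00257), with 15.9% left in HCT116 and 8.33% in LS180. ISL1 differed by 1.21 (SE 0.251, adjusted p = 0.00487), with 36.1% left in HCT116 and 15.6% in LS180. At 4 h DLL4 differed by 1.92 (SE 0.388, adjusted p = 0.00186), with 15.6% left in HCT116 and 4.24% in LS180, and DLL1 by 1.26 (SE 0.352, adjusted p = 0.0206), with 28.6% left in HCT116 and 12.2% in LS180.

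Single libraries carried much of this. Without HCT116 4 h replicate 1 DLL4 differed by 1.32 (adjusted p = 0.0796) and DLL1 by 0.63 (0.275), and DLL1 was lost in 9 of 30 alternatives, among them without the HCT116 libraries numbered 1 (0.80, 0.229) and without the LS180 4 h libraries numbered 2 and 3 (0.62, 0.393). Without HCT116 2 h replicate 2 HES1 differed by 0.73 (0.0546) and ISL1 by 0.93 (0.0959), and ISL1 was also lost without LS180 2 h replicate 2 (0.98, 0.0535). HES1 at 4 h differed by 0.50 (adjusted p = 0.111), ISL1 by 0.55 (0.438) and DLL4 at 2 h by 1.14 (0.0795). GFI1 differed by 0.74 at 2 h and 0.93 at 4 h, neither passing the test. In HCT116 these genes averaged 1.53 CPM or less at 0 h, except HES1.

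**Figure D4:**
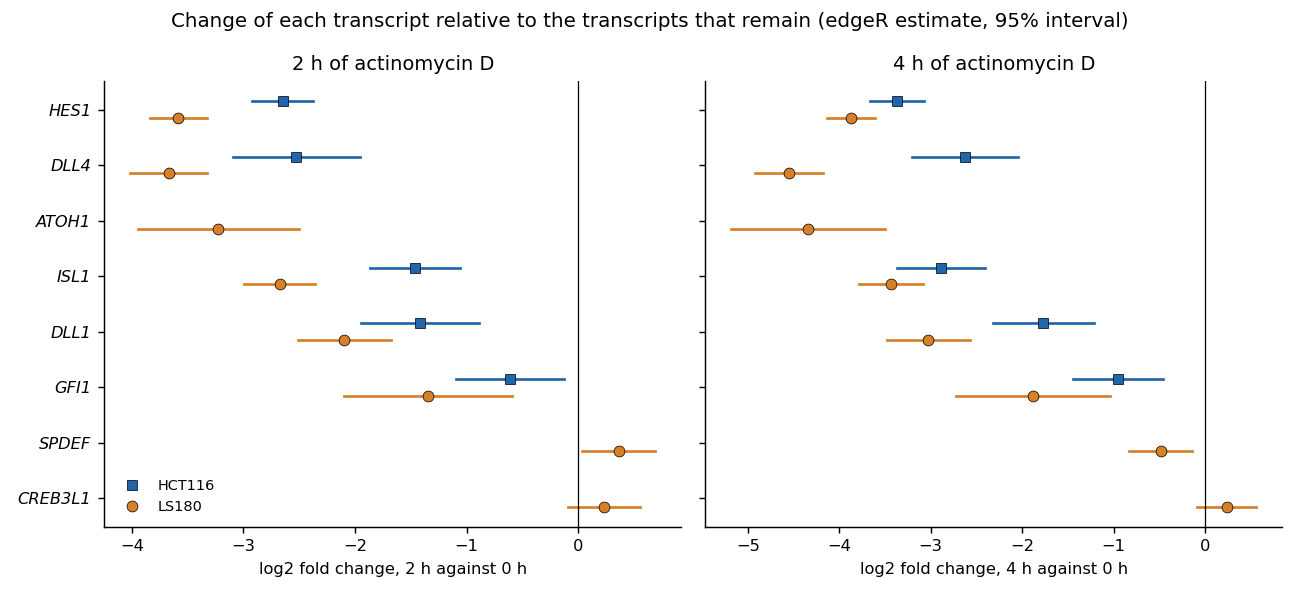
Log2 fold change after 2 h (left) and 4 h (right) of actinomycin D against 0 h, with 95% intervals, in HCT116 (blue squares) and LS180 (orange circles), relative to the RNA that remains. HCT116 is not drawn for ATOH1, SPDEF and CREB3L1, which had 5 reads or fewer there; in the other genes the LS180 points lie further to the left.

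Notch targets and other secretory regulators were mostly lower at 4 h, when 31.1% of all genes were called lower and 26.6% higher in LS180, and 23.7% lower and 26.2% higher in HCT116. In LS180 at 4 h 12 of 15 tested Notch targets and co-repressors fell, among them NRARP by 3.08, ID1 by 4.21, HES5 by 4.78 and TLE3 by 1.43, and in HCT116 9 fell and 1 rose. Of 11 tested secretory and enteroendocrine regulators 9 fell in LS180, with KLF4 at -3.95, SOX9 at -2.91, ELF3 at -2.40 and ZNF800 at -1.51, and 9 fell and 1 rose in HCT116. The Notch machinery lay nearer to the all-gene shares, with 16 of 34 tested genes lower and 8 higher in LS180 and 16 lower and 7 higher in HCT116; in LS180 JAG1 fell by 1.78, LFNG by 1.75, DTX2 by 1.82 and FBXW7 by 1.38. With the ribosomal scale no gene of these 3 lists rose in either line, and 28 Notch machinery genes fell in LS180.

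The goblet products went the other way in LS180, with 12 of 23 higher at 4 h and 1 lower; SPINK4 was at 0.68, AGR3 at 0.76, TFF3 at 0.58 and REG4 at 0.58. Of 15 CREB3 and ATF6 family genes and partners, 9 were higher and 1 lower. Both directions are relative: with the ribosomal scale 0 goblet products were higher and 3 lower, and 0 of the CREB3 list were higher and 10 lower.

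The genes whose pattern was most like each member were found over the means of the 6 line and time groups, as the smallest root mean square (RMS) difference of centred log2(CPM + 0.5) values among 12936 or 12937 genes averaging at least 1 CPM. HES1 was most like LRIG3 (RMS 0.145), ZFP36L2 (0.213) and SMAD7 (0.244), where the median gene was at 1.57. DLL4 was most like HIST1H2BE (0.284), ADAMTS15 and SPRY2. DLL1 and ISL1 shared a close neighbour, BCL11B, at 0.0506 and 0.141, with DUSP10 closest to ISL1 at 0.0616. ATOH1 was most like IL8 (0.166), SPDEF like C2orf54 (0.157), GFI1 like ZNF585B (0.0549) and CREB3L1 like TPST2 (0.0301). The prior of 0.5 CPM flattens the patterns of ATOH1 and GFI1, which are low throughout. It also flattens the HCT116 part of the patterns of ISL1, DLL1 and DLL4, which averaged 0.128, 0.432 and 0.200 CPM there at 4 h. SPDEF and CREB3L1 were near 0 in that line.

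The 3′ untranslated regions of the members are shown for the pentamer ATTTA, the core of AU-rich elements known for their part in rapid mRNA decay. By GENCODE 29 transcripts, ISL1 held 5 copies, ATOH1 held 4, GFI1 and DLL1 held 3 each and DLL4 held 2, and SPDEF, CREB3L1 and HES1 held 0. NEUROD1 held 8 and INSM1 held 7, but with reads near 0 neither could be tested. Over 18945 genes the median was 1 and 64.3% held at least 1. Windows of 30 bases around a copy in the 5 genes that both held one and fell in LS180 follow, with ATTTA in capitals. They lie at chr5:51394492-51394521 (plus strand, ISL1), chr4:93830354-93830383 (plus, ATOH1), chr15:40938969-40938998 (plus, DLL4), chr6:170282603-170282632 (minus, DLL1) and chr1:92475589-92475618 (minus, GFI1) in GRCh38.
ISL1: tataaagtaATTTAttATTTAttgtcggaa
ATOH1: tggtttgggtttaATTTAttttacgccctg
DLL4: tagtatttcaataATTTAagaatcagaagc
DLL1: taagagaatatatATTTAaatgggtgaact
GFI1: aggaggaatcaccATTTAcaaggtggacaa

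HES1, SPDEF and CREB3L1, which had no copy, were at 6.83%, 71.3% and 118% at 4 h in LS180. Among 13554 tested genes matched by Ensembl gene identifier, the median log2 change at 4 h in LS180 was -0.05 for 5558 genes with 3 or more copies and 0.07 for 4248 genes with 0. For the 3748 genes with 1 or 2 copies, the class of DLL4, the median was -0.01. A log2 change of -2 or lower was found in 8.44% of genes with 3 or more copies, 7.68% with 1 or 2 and 5.48% with 0. The 5 tested members that hold copies fell much further than these medians, and so did HES1, which holds 0. A match is only a run of letters in the annotated region, and nothing was measured on the element itself.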

How the data were processed

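RNA-seq was deposited as gene tables, 1 per library, for 4 LS180 siRNA libraries and 18 actinomycin D libraries. Per the submitters' processing notes, cutadapt, STAR 2.7 and RSEM 1.3.1 were named, with build hg38 for siRNA libraries and hg19 for actinomycin D libraries; no annotation release is named in the sources used here. The authors deposited RSEM expected counts, TPM and effective lengths. Expected counts were rounded to whole numbers, filtered by filterByExpr, scaled by TMM and fitted per experiment with edgeR 4.0.16 (quasi-likelihood, R 4.3.3; 14073 and 17256 genes, 2 and 12 residual degrees of freedom). P-values were adjusted by Benjamini-Hochberg over all genes of a fit, with a threshold of 0.05. CPM are TMM-scaled; the deposited TPM served only to rank genes. Sensitivity was checked with DESeq2 1.42.0, other filters and scalings, a length offset, a replicate block and libraries left out. The fit was tested on simulated data, where 80.3% of 1.5-fold changes were recovered in the siRNA design of 13903 genes and 68.2% in the LS180 4 h design of 16631 genes. Members, lists and tests were chosen with earlier results of these data known. Named genes are the 10 members, up to 4 genes per list with the smallest adjusted p among those called, and the 3 nearest patterns; 1 gene that this rule names is not reported here. Cell type markers named besides were picked from fixed lists after their values were seen. Same-numbered HCT116 libraries deviated together (r from 0.183 to 0.577 over 9 pairs, all above 0.1), as seen from the data alone, since no label ties them. The main fits used group only, so the main HCT116 p-values do not account for this pairing. Blocks by replicate number were alternative settings. LS180 libraries did not deviate together in this way (-0.232 to 0.160 over 9 pairs). In the siRNA experiment r was -0.0576. With 2 libraries per group both pairs give the same r by construction, so this is a single value. Where a symbol had several rows, that with the most reads was used. Sequences came from RefSeq (GRCh38.p14) and GENCODE 29.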

Additional observations from a re-analysis of the deposited data

Results flagged for a closer look

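The change after actinomycin D differed between HCT116 and LS180, by the test of the difference itself, for 4 results. HES1 at 2 h differed by 0.94 on the log2 scale (edgeR adjusted p = 0.00257) and ISL1 at 2 h by 1.21 (0.00487). At 4 h DLL1 differed by 1.26 (0.0206) and DLL4 by 1.92 (0.00186). All 4 are positive, a smaller relative fall in HCT116 than in LS180, where each gene also starts from a higher level. No group held enough libraries for a search for single outlying samples.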

How the results depend on the processing

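Over 56 results of single genes, 1516 values under other settings kept direction and side of the threshold in 1422, lost the call in 45, gained it in 45 and reversed in 4. The reversed values were GFI1 with siSTAU1 without siCTRL replicate 2 (-0.04) and without siSTAU1 replicate 2 (-0.06), in a range from -0.0641 to 0.183 with libraries left out in turn, and CREB3L1 in LS180 under the ribosomal scale at 2 h (-0.00127) and 4 h (-0.29); none of them passed the test. With libraries left out in turn, members called ranged from 3 to 4 for siSTAU1, 6 to 8 for LS180 at both times, 4 to 5 and 5 to 6 for HCT116 at 2 and 4 h, and stayed at 8 between lines. Counts of line differences moved most: at 2 h from 0 to 2 with libraries left out, 1 with the length offset and 4 with only the groups compared; at 4 h from 0 to 3 with libraries left out and 1 with only the groups compared, without the HCT116 libraries numbered 1, or without the LS180 4 h libraries numbered 2 and 3. Fewer samples enter the fits with libraries or groups left out, whereas the length offset used all libraries. The cause of these moves was not tested.

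All-gene calls with siSTAU1 numbered 3242 higher and 3240 lower, and 2189 and 2233 with the length offset. With the replicate block over all libraries of an experiment 4 members were called for siSTAU1, 6 and 7 in LS180, 5 and 6 in HCT116 at 2 and 4 h, 8 between lines and 2 at each time for line differences; GFI1 in HCT116 at 2 h gained its call (adjusted p = 0.0264). With the block within HCT116 only, a setting chosen after seeing the data, as were the fits without the HCT116 libraries numbered 1 and without the LS180 4 h libraries numbered 2 and 3, the counts were 5 and 5 in HCT116 and the same elsewhere; GFI1 at 2 h was gained and ATOH1 at 4 h lost, and it changed no other call. Low reads limit ATOH1, SPDEF and CREB3L1 in HCT116 and GFI1 in LS180.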

Other observations

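LS180 was measured in both experiments without STAU1 siRNA or actinomycin D exposure, and the members fell into 2 kinds. HES1 averaged 30.5 CPM in siCTRL libraries and 29.3 CPM in 0 h libraries, DLL1 8.20 and 8.60 CPM, ISL1 5.03 and 5.50 CPM, and DLL4 18.3 and 23.4 CPM. CREB3L1 averaged 84.0 CPM in siCTRL libraries and 4.49 CPM in 0 h libraries, SPDEF 25.5 and 3.97 CPM, ATOH1 22.2 and 1.96 CPM, and GFI1 3.22 and 0.353 CPM. The Paneth defensin DEFA5 went the other way, at 0.520 CPM in siCTRL libraries and 52.1 CPM in 0 h libraries. LYZ, from the same list of 4 Paneth markers, was lower in 0 h libraries, at 227 and 52.7 CPM. Summed, the list was also lower there, at 456 to 467 CPM in siCTRL libraries and 156 to 212 CPM in 0 h libraries. The lengths counted also differed for some genes. The effective length of ATOH1 was 2024 bases in siCTRL replicate 1 and 993 bases in LS180 0 h replicate 1, and that of SPDEF 1720.5 and 1708 bases. RNA selection, annotation and transfection all differ between the experiments and cannot be told apart, and no test was made.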
